A study of Homo sapiens with 6 samples.

Results

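The integrin subunits and focal adhesion proteins examined here were 45 genes, chosen by symbol for their known role, of the 20811 genes in the table. They were 26 integrin subunit genes and 19 genes of adaptors and kinases that assemble on the cytoplasmic side of integrins, and each was found under its own symbol. Expression was compared between 2 lines made from HuCCT1, a line from a human bile duct cancer within the liver. The THY1-CMV-GFP lentivirus, which brings in the human gene of CD90, gave HuCCT1/CD90+, and a blank lentivirus (Lenti-CMV-GFP-2A-Puro-Blank) gave HuCCT1/CD90−, with 3 libraries per line and no drug treatment stated in the labels. Both constructs hold the CMV promoter and GFP, both lines were grown in RPMI with serum, and whether either is a clone is not given in the sources used here. Since the labels name no separate transductions of a line, an effect of CD90 and a difference between the 2 cell populations cannot be told apart. The labels name replicates but not separate cultures, so p-values measure the spread between these libraries, which may be technical.

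Integrins are receptors for extracellular matrix, each made of 1 α and 1 β chain. Talins and kindlins bind the cytoplasmic tail of the β chain and switch the receptor to its active state, vinculin, zyxin, tensins and the ILK-PINCH-parvin complex couple it to actin, and focal adhesion kinase with its Cas-family partners passes the signal on. CD90 is a glycoprotein held in the membrane by a lipid anchor, and integrins of other cells, among them αvβ3 (ITGAV with ITGB3), are known to bind it. Bile duct epithelium and tumours derived from it use laminin and collagen receptors, and the epithelial integrin αvβ6 (ITGAV with ITGB6) is known for binding and activating latent TGF-β.

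Each library held 8587634 to 10551516 reads on genes. A gene was read over 1 amplicon, and values are RPM (reads scaled to the same total in each library). Levels of different genes cannot be ranked, since amplicons differ in efficiency. A level that stands for 3 reads, which was 0.284 to 0.349 RPM depending on the library, served as the floor, and a gene was at the floor in a line when none of its libraries exceeded it. The floor covers counting error only. The transduced gene THY1 had 0, 1 and 0 reads in HuCCT1/CD90− and 435, 445 and 680 reads in HuCCT1/CD90+, which follows the labels. By the limma test described below, 5 of 7 biliary epithelial marker genes were higher in HuCCT1/CD90+ (against 9.41% of all genes) and none lower (against 9.52%). Their summed level was 8210 to 9314 RPM in HuCCT1/CD90− libraries against 10974 to 11722 RPM. Of 6 leukocyte markers, 4 were at the floor in both lines, among them PTPRC and SPI1 (the latter called higher at no more than 0.217 RPM), while CD68 rose from 50.8 to 92.2 RPM and CD14 fell from 80.8 to 4.32 RPM on average. Of 6 fibroblast markers 5 were lower (against 9.52% of all genes), with sums of 41.8 to 64.9 RPM in HuCCT1/CD90− libraries against 20.3 to 24.7 RPM. Among them COL1A2 (8, 3 and 5 reads) and COL3A1 (9, 4 and 13 reads) were low in HuCCT1/CD90−, and neither had a read in HuCCT1/CD90+. Of 4 endothelial markers 1 (CDH5) was lower (against 9.52% of all genes), and their sum went from 14.5 to 23.2 RPM down to 0.643 to 1.63 RPM. The 4 platelet markers summed to 1.23 to 3.59 RPM against 5.53 to 9.22 RPM, with none called. The part of these marker shifts in the adhesion genes was not tested, and fewer cells that express a gene cannot be told apart from less RNA per cell.

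The adhesion genes changed in both directions. At an adjusted p of at most 0.05 (limma on log2(RPM + 1), Benjamini-Hochberg over all 20811 genes), 8 of the 45 were higher in HuCCT1/CD90+ (17.8%, against 9.41% of all genes) and 7 were lower (15.6%, against 9.52% of all genes). The genes that rose were ITGB6, NEDD9, PTK2B, ITGA2, TES, FERMT1, ITGB5 and LIMS1, and those that fell were ITGB3, TLN2, ITGB7, TLN1, TNS3, ITGA5 and PTK2. A further 15 reached a mean of 1 RPM in at least 1 line without passing the test, and 15 stayed under 1 RPM in both lines. The floor was not exceeded in either line by 10 of the 45 (22.2%) and by 32.3% of all genes, and such genes could hardly be called. Over the 12389 genes that averaged 1 RPM or more in a line, 14.7% were higher and 15.1% lower, and over the 30 members that did so, which a high level in 1 line was enough to admit, these shares were 26.7% and 23.3%. The median log2 fold change was 0 over the 45 and 0 over all genes. At the thresholds of the study's methods, a fold of 1.5 and an unadjusted p of 0.05, 8 genes were higher (10.1% of all genes) and 7 lower (9.98% of all genes), with ITGAE, ITGB2 and FERMT2 in place of ITGB5, LIMS1 and PTK2. All HuCCT1/CD90+ libraries lay above all HuCCT1/CD90− libraries for 10 of the 45 genes (17.3% of all genes) and below them for 11 (17.7% of all genes). Blocking on the replicate number left 6 higher (6.72% of all genes) and 6 lower (6.4% of all genes), LIMS1, TES, ITGB5, ITGA5 and TNS3 being lost and ITGB2 and ITGA6 gained. The count of risers was 5 without HuCCT1/CD90− replicate 2 (6.38% of all genes), and that of fallers was 4 without HuCCT1/CD90+ replicate 1, replicate 2 or replicate 3 (5.66%, 5.79% and 5.02% of all genes).

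**Figure D1:**
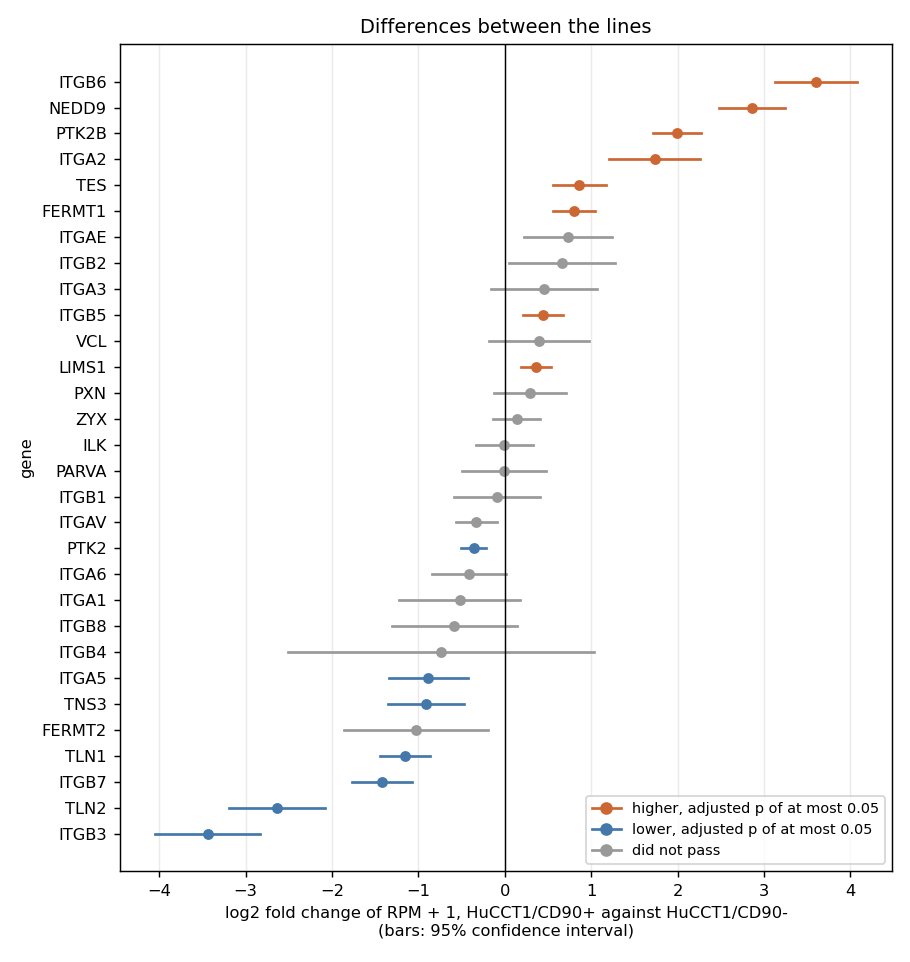
Log2 fold change of RPM + 1 between HuCCT1/CD90+ and HuCCT1/CD90− (points) with 95% confidence intervals (bars) for the 30 genes that averaged 1 RPM or more in either line, coloured by the limma test. ITGB6 lies at the top at 3.61 and ITGB3 at the bottom at -3.44, and the interval of ITGB4 is the widest, from -2.51 to 1.03.

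The β chains, which decide how an integrin connects to the cytoskeleton, showed the largest opposite changes. ITGB6 encodes the β6 chain, which pairs only with αv and is found in epithelia. It lies on chromosome 2 of GRCh38 from 160099666 to 160200313 (GENCODE 29, which gives all gene positions here, since the table has none). HuCCT1/CD90− libraries held ITGB6 at 0.948, 0.642 and 0.582 RPM, and HuCCT1/CD90+ libraries at 19.9, 16.2 and 24.4 RPM. The lowest HuCCT1/CD90+ library thus lay far above the highest HuCCT1/CD90− library. The mean was 27.9-fold higher, and the log2 fold change on the RPM + 1 scale, which understates changes of low genes, was 3.61 (standard error 0.18, adjusted p = 0.0011, limma).

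ITGB3 encodes the β3 chain of the vitronectin receptor αvβ3 and lies on chromosome 17 from 47253846 to 47311816. It went the other way, with 16.2, 22.6 and 23.4 RPM in HuCCT1/CD90− against 0.858, 1.51 and 0.651 RPM in HuCCT1/CD90+. The 2 groups stood far apart, and the mean was 20.6-fold lower (log2 fold change -3.44, standard error 0.23, adjusted p = 0.0020, limma). Since both chains pair with αv, their ratio was taken within each library, a description added after both values were seen. The ratio of ITGB6 to ITGB3 RPM was 0.0585, 0.0284 and 0.0249 in HuCCT1/CD90− and 23.2, 10.7 and 37.5 in HuCCT1/CD90+. Its size, like that of both fold changes, rests on few reads in 1 line. ITGB6 had 10, 6 and 6 reads in HuCCT1/CD90−, and ITGB3 had 8, 13 and 6 reads in HuCCT1/CD90+. The efficiency of each amplicon enters every library alike, so the shift of this ratio between lines can be read while its size within a line cannot.

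ITGB7 encodes the β7 chain of lymphocyte integrins. It was low throughout, at 3.03, 2.14 and 2.04 RPM in HuCCT1/CD90−, and each HuCCT1/CD90+ library was at the floor with 0.214, 0.349 and 0.217 RPM. The level was at least 6.88-fold lower in HuCCT1/CD90+ (adjusted p = 0.0048, limma). ITGB5, whose β5 chain forms another vitronectin receptor with αv, had 70.6, 78.0 and 76.1 RPM in HuCCT1/CD90− and 94.2, 99.1 and 113 RPM in HuCCT1/CD90+. Its rise was small (log2 fold change 0.44, standard error 0.09, adjusted p = 0.032, limma). The adjusted p was 0.064 with the replicate block, 0.056 after quantile normalization and 0.053 to 0.097 when any library other than HuCCT1/CD90+ replicate 3 was left out. The 50 nearest genes on chromosome 3 were themselves higher, as described further on.

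The other β chains did not pass the limma test. ITGB1 encodes the β1 chain shared by most matrix receptors and had 29.9, 24.4 and 29 RPM in HuCCT1/CD90− and 32.9, 21.5 and 24.5 RPM in HuCCT1/CD90+. The groups overlapped fully, and the 95% confidence interval of the log2 fold change ran from -0.59 to 0.40. ITGB4, the partner of α6 in hemidesmosomes, had 638, 1094 and 362 RPM in HuCCT1/CD90− and 228, 769 and 308 RPM in HuCCT1/CD90+. Replicate 2 was the highest library of each line, and the spread within a line was too wide for a call (log2 fold change -0.74, interval -2.51 to 1.03, adjusted p = 0.57). ITGB2, the leukocyte β2 chain, had 45.9, 69.9 and 51.4 RPM in HuCCT1/CD90− and 72.0, 107 and 85.3 RPM in HuCCT1/CD90+. Replicate 2 was again highest in both lines, and the adjusted p was 0.14 without and 0.020 with the replicate block (limma), and 0.0059 with edgeR. ITGB8, which also pairs with αv, had 28.1, 40.7 and 54.8 RPM in HuCCT1/CD90− and 27.8, 23.2 and 28 RPM in HuCCT1/CD90+ (adjusted p = 0.25, limma, and 0.014 with edgeR), groups that lay next to each other without overlap.

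**Figure D2:**
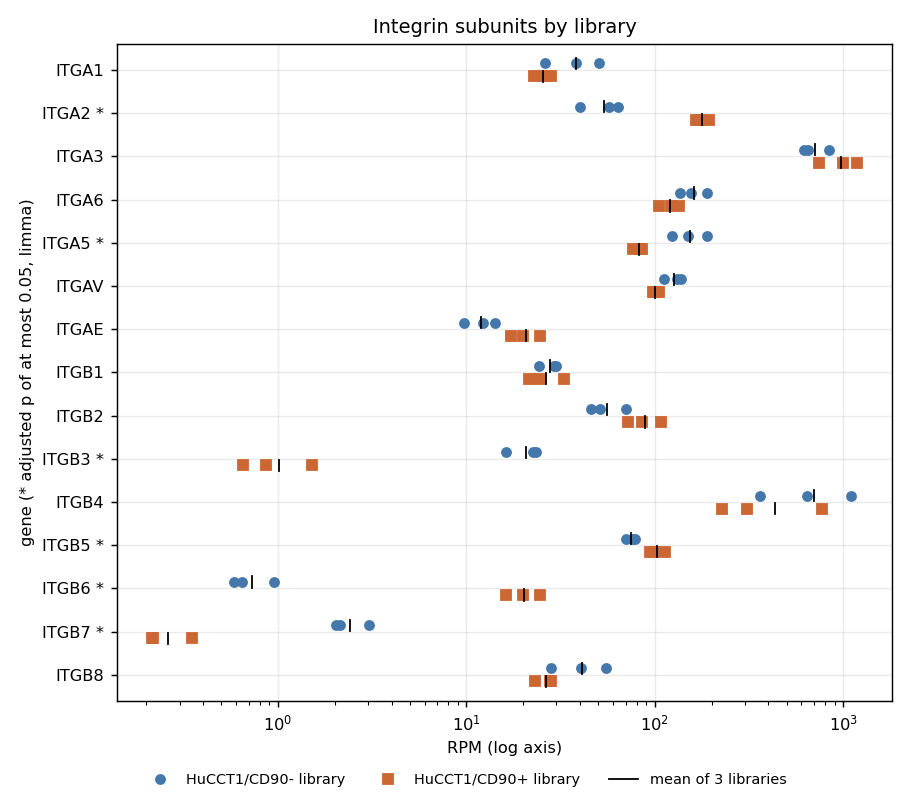
RPM on a log axis of the 15 integrin subunit genes that averaged 1 RPM or more in either line, with 1 point per library (circles HuCCT1/CD90−, squares HuCCT1/CD90+) and the mean of 3 libraries as a black tick. The groups of ITGB3, ITGB6, ITGB7 and ITGA2 are widely separated, whereas those of ITGB1 and ITGB4 overlap.

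The promoters of 3 called genes are shown, namely that of the gene with the largest rise (ITGB6), that of the only called gene whose RefSeq window held an AP-1 motif (ITGA5), and that of the gene with the largest fall on the log2(RPM + 1) scale among those with a promoter in the RefSeq table (TLN2). Each is 1 RefSeq window of GRCh38.p14 from 250 bases before to 50 bases after the transcription start, printed 5′ to 3′ on the gene's strand, and capitals mark matches to 1 of 3 motifs searched on both strands. These were the E-box CACCTG, which ZEB and SNAI repressors bind, the TEAD motif GGAATG, and the AP-1 motifs TGACTCA and TGAGTCA.
ITGB6, chr2:160200223-160200522, minus strand: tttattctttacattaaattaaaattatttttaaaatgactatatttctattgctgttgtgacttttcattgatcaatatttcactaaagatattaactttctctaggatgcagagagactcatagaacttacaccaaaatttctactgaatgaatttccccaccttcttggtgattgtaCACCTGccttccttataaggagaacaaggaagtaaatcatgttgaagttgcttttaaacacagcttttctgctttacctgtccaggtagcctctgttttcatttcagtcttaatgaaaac
ITGA5, chr12:54419217-54419516, minus strand: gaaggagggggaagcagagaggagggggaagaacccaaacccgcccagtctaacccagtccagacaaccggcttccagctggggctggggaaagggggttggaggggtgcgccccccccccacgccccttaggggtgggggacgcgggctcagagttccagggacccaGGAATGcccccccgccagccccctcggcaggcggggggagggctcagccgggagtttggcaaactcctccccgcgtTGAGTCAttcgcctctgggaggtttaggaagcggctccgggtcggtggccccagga
TLN2, chr15:62390300-62390599, plus strand: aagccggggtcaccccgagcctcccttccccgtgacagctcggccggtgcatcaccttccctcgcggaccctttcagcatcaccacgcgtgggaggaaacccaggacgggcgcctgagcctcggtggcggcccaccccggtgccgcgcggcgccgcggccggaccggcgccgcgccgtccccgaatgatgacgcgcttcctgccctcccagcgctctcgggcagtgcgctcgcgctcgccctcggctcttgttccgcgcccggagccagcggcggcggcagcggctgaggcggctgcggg
The window of ITGB6 holds an E-box that begins 70 bases before the start and is rich in A and T, with 31.7% G and C against a median of 58.7% over all 35116 windows. The window of ITGA5 holds a TEAD motif 82 bases and an AP-1 motif 6 bases before the start, with 69.3% G and C. TLN2 has none of these letters in its window, which is 76.0% G and C. Windows were found for 32 of the 45 genes, 58 windows in all, since a gene can have several starts. An E-box was in 13 of the 58 (22.4%, against 20.6% of all windows), a TEAD motif in 8 (13.8%, against 14.0%) and an AP-1 motif in 2 (3.45%, against 4.95%). A match of letters is a description and not a binding site.

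Among the α chains, which set the ligand, ITGA2 rose and ITGA5 fell. ITGA2 encodes α2 of the collagen receptor α2β1 and lies on chromosome 5 from 52989326 to 53094779. It had 40.1, 56.8 and 63.4 RPM in HuCCT1/CD90− and 165, 194 and 173 RPM in HuCCT1/CD90+. Every HuCCT1/CD90+ library was well above every HuCCT1/CD90− library, with a mean 3.32-fold higher (log2 fold change 1.73, standard error 0.20, adjusted p = 0.0083, limma). ITGA1, its neighbour on the chromosome and the α1 chain of another collagen receptor, had 26.3, 38.0 and 50.4 RPM in HuCCT1/CD90− and 28.1, 22.8 and 25.6 RPM in HuCCT1/CD90+. These groups overlapped and did not pass (log2 fold change -0.52, interval -1.23 to 0.18, adjusted p = 0.28, limma, and 0.025 with edgeR).

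ITGA5 encodes α5 of the fibronectin receptor α5β1 and lies on chromosome 12 from 54395261 to 54419460. Its libraries had 124, 188 and 150 RPM in HuCCT1/CD90− and 76.1, 83.6 and 85.9 RPM in HuCCT1/CD90+. The groups were apart, with a mean 1.88-fold lower (log2 fold change -0.88, standard error 0.17, adjusted p = 0.033, limma). The adjusted p was 0.067 with the replicate block, and 0.098 to 0.11 without HuCCT1/CD90− replicate 3 or without any 1 of the HuCCT1/CD90+ libraries. ITGAV, the αv chain that β3, β5, β6 and β8 share, had 131, 112 and 138 RPM in HuCCT1/CD90− and 105, 97.9 and 98.7 RPM in HuCCT1/CD90+. The groups lay close together without overlapping, and the difference missed the threshold (log2 fold change -0.33, interval -0.57 to -0.09, adjusted p = 0.076, limma). Without HuCCT1/CD90− replicate 2 the adjusted p of ITGAV was 0.024, and with median centring of all libraries it was 0.037 (limma). Beside the -0.33 of ITGAV, ITGB6 and ITGB3 stood at 3.61 and -3.44, ITGB5 at 0.44 and the uncalled ITGB8 at -0.58 in log2 units, and the differences in size were not tested.

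The laminin-binding chains were not called. ITGA3 had 618, 845 and 653 RPM in HuCCT1/CD90− and 740, 1186 and 1002 RPM in HuCCT1/CD90+ (log2 fold change 0.46, adjusted p = 0.28, limma, and 0.029 with edgeR). ITGA6 had 189, 137 and 156 RPM in HuCCT1/CD90− and 134, 105 and 121 RPM in HuCCT1/CD90+ (log2 fold change -0.41, adjusted p = 0.17). With the replicate block the adjusted p of ITGA6 was 0.043. ITGAE, the αE chain that binds E-cadherin when paired with β7, had 14.1, 12.2 and 9.70 RPM in HuCCT1/CD90− and 24.6, 17.2 and 20.0 RPM in HuCCT1/CD90+. All its HuCCT1/CD90+ libraries were the higher ones, but the adjusted p was 0.070 (limma, and 0.0057 with edgeR). The other 11 α chain genes stayed under 1 RPM in both lines. ITGA8, ITGAD and ITGAL had no read in any library, ITGA2B, ITGA4, ITGA7, ITGA9, ITGA11 and ITGAX were at the floor in both lines, ITGA10 had 0.217 to 0.749 RPM, and ITGAM exceeded the floor in 1 HuCCT1/CD90+ library (0.582 RPM). The chains of platelets and white blood cells thus were not detected or barely so, apart from ITGAE and the β chains ITGB2, ITGB3 and ITGB7.

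Of the 4 talin and kindlin genes, whose proteins bind β tails as activators, both talins fell (2 of 4, against 9.52% of all genes), FERMT1 rose (1 of 4, against 9.41%) and FERMT2 did not pass. TLN1 encodes talin-1 and lies on chromosome 9 from 35696948 to 35732395. It had 344, 430 and 339 RPM in HuCCT1/CD90− and 158, 171 and 167 RPM in HuCCT1/CD90+, a mean 2.24-fold lower (log2 fold change -1.15, standard error 0.11, adjusted p = 0.0052, limma). TLN2, the gene of talin-2, lies on chromosome 15 from 62390526 to 62844631 and fell further, from 79.7, 123 and 91.8 RPM to 13.8, 13.0 and 17.5 RPM. Neither gene had overlapping groups, and the TLN2 mean was 6.65-fold lower (log2 fold change -2.64, standard error 0.21, adjusted p = 0.0032, limma).

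FERMT1 encodes kindlin-1, the epithelial kindlin. Its 3 HuCCT1/CD90− libraries were close to each other at 48.4, 45.6 and 46.5 RPM, and the HuCCT1/CD90+ libraries had 91.4, 84.0 and 73.0 RPM. The mean was 1.77-fold higher (log2 fold change 0.80, standard error 0.09, adjusted p = 0.0084, limma). FERMT2, the gene of the widely expressed kindlin-2, had 48.9, 54.2 and 81.0 RPM in HuCCT1/CD90− and 33.3, 20.3 and 35.5 RPM in HuCCT1/CD90+. The groups did not overlap, yet the difference missed the threshold (log2 fold change -1.03, interval -1.86 to -0.19, adjusted p = 0.0998, limma), while on recovered reads it passed with edgeR (adjusted p = 0.00053).

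Of the 6 scaffold and actin-linking genes 1 was higher and 1 lower (16.7% each, against 9.41% and 9.52% of all genes), and 4 did not pass the test. TNS3 encodes tensin-3 and lies on chromosome 7 from 47275154 to 47582558. It fell from 479, 675 and 492 RPM to 261, 296 and 305 RPM, without overlap (log2 fold change -0.92, standard error 0.16, adjusted p = 0.027, limma). The adjusted p was 0.066 with the replicate block and 0.053 to 0.088 without any 1 library other than HuCCT1/CD90− replicate 2. TES encodes testin, a partner of zyxin, and rose from 99.3, 105 and 125 RPM to 220, 187 and 193 RPM, again without overlap (log2 fold change 0.86, standard error 0.12, adjusted p = 0.013, limma). With the replicate block the adjusted p was 0.073, and without HuCCT1/CD90− replicate 2 or HuCCT1/CD90+ replicate 3 it was 0.052 and 0.053.

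Paxillin, zyxin and vinculin were not called. PXN had 255 to 352 RPM against 346 to 425 RPM in HuCCT1/CD90+ (log2 fold change 0.29, interval -0.12 to 0.71), and ZYX had 160 to 204 and 190 to 201 RPM (0.14, interval -0.13 to 0.41). VCL was read at only 0.963 to 2.68 RPM over all libraries, and TNS1 did not reach 1 RPM in any library. These low readings come from 1 amplicon each and do not show that little vinculin or tensin-1 is made.

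The ILK-PINCH-parvin complex, a scaffold that holds kindlin-bound integrins to actin, had 1 of 5 genes higher (20.0%, against 9.41% of all genes) and none lower. ILK had 122, 101 and 98.6 RPM in HuCCT1/CD90− and 115, 110 and 94.5 RPM in HuCCT1/CD90+, overlapping fully (log2 fold change -0.01, interval -0.33 to 0.32). PARVA, the gene of α-parvin, had 61.4 to 97.1 and 73.4 to 80.1 RPM (log2 fold change -0.01, interval -0.50 to 0.48). LIMS1, the gene of PINCH-1, was slightly higher, with 44.7, 49.6 and 52.3 RPM against 62.2, 62.4 and 64.2 RPM in tight, separate groups (log2 fold change 0.36, standard error 0.06, adjusted p = 0.025, limma). This call was lost with the replicate block (adjusted p = 0.061), with filters at a mean of 1 or 10 RPM (0.067 and 0.052), with edgeR (0.051), and without HuCCT1/CD90− replicate 2 or any 1 of the HuCCT1/CD90+ libraries (0.076 to 0.094). LIMS2 and PARVB had at most 0.582 RPM in any library.

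Of the 4 kinase and Cas-family genes, PTK2B and NEDD9 rose (2 of 4, against 9.41% of all genes), PTK2 fell (1 of 4, against 9.52%) and BCAR1 did not pass. PTK2B encodes PYK2, the calcium-responsive relative of focal adhesion kinase, and lies on chromosome 8 from 27311482 to 27459391. It rose from 16.1, 15.7 and 15 RPM to 58.2, 75.0 and 63.5 RPM, a mean 4.20-fold higher (log2 fold change 1.99, standard error 0.10, adjusted p = 0.0012, limma). PTK2, the gene of focal adhesion kinase itself, fell slightly, from 147, 164 and 147 RPM to 119, 121 and 116 RPM without overlap (log2 fold change -0.36, standard error 0.05, adjusted p = 0.017, limma). The adjusted p of PTK2 was 0.057 to 0.069 without any 1 of the HuCCT1/CD90+ libraries, and 0.065 and 0.050 with filters at a mean of 1 and 10 RPM, both just over the threshold.

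NEDD9 encodes a Cas-family docking protein that focal adhesion kinase and SRC phosphorylate, and lies on chromosome 6 from 11183298 to 11382348. Its 3 HuCCT1/CD90− libraries had 1.61, 2.57 and 2.42 RPM and the HuCCT1/CD90+ libraries 21.4, 21.0 and 23.9 RPM. That is a mean 10.0-fold higher with tight replicates (log2 fold change 2.86, standard error 0.14, adjusted p = 0.0011, limma). BCAR1, the gene of p130Cas, was read at no more than 1.04 RPM in any library and was not called (adjusted p = 0.25).

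**Figure D3:**
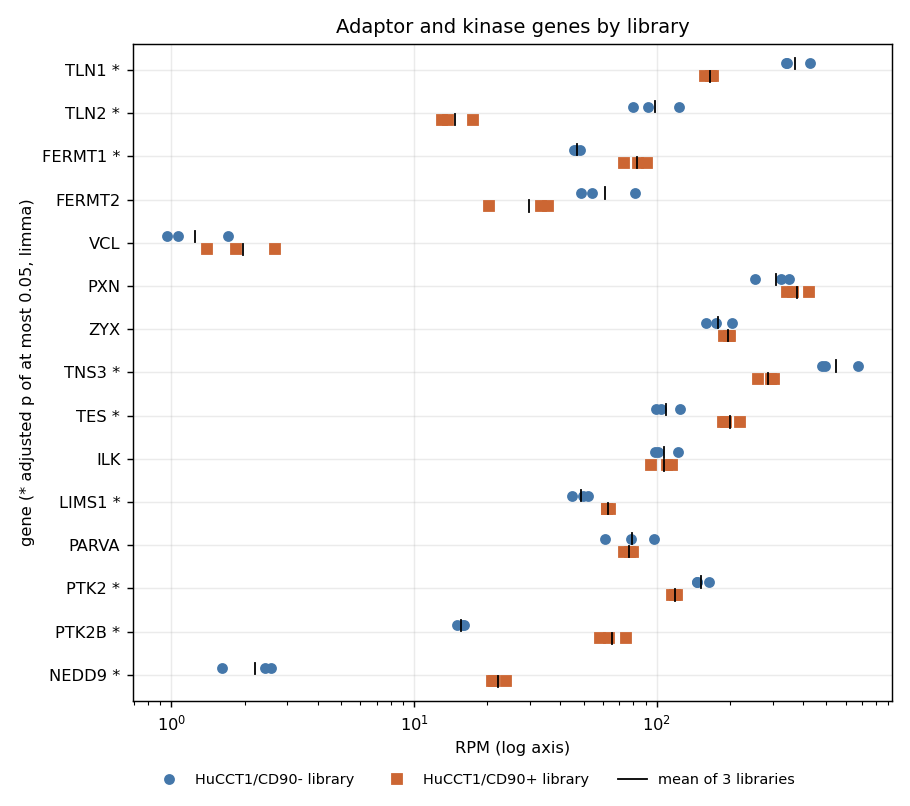
RPM on a log axis of the 15 adaptor and kinase genes that averaged 1 RPM or more in either line, with 1 point per library (circles HuCCT1/CD90−, squares HuCCT1/CD90+) and the mean of 3 libraries as a black tick. NEDD9 and PTK2B lie higher and TLN1, TLN2 and TNS3 lower in all 3 HuCCT1/CD90+ libraries, while ILK, PARVA and ZYX overlap.

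The balance of paralogues was measured within libraries, where the scaling of a library cancels. Of 7 pairs planned, 3 had both genes at a mean of at least 1 RPM. The RPM of FERMT1 relative to FERMT2 was 0.990, 0.840 and 0.574 in HuCCT1/CD90− and 2.74, 4.14 and 2.06 in HuCCT1/CD90+. For TLN1 relative to TLN2 the ratios were 4.32, 3.48 and 3.70 against 11.4, 13.1 and 9.58. PTK2 relative to PTK2B went from 9.11, 10.5 and 9.77 to 2.04, 1.61 and 1.83. In each pair the 2 lines did not overlap. On the log2(RPM + 1) scale the ratios changed by 1.83, 1.49 and -2.35, with an exact two-sided permutation p of 0.10 each (adjusted p = 0.10 over the 3 pairs), the smallest that 3 against 3 libraries can give. The permutation took the libraries as unpaired, and no version that used the replicate numbers was run.

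**Figure D4:**
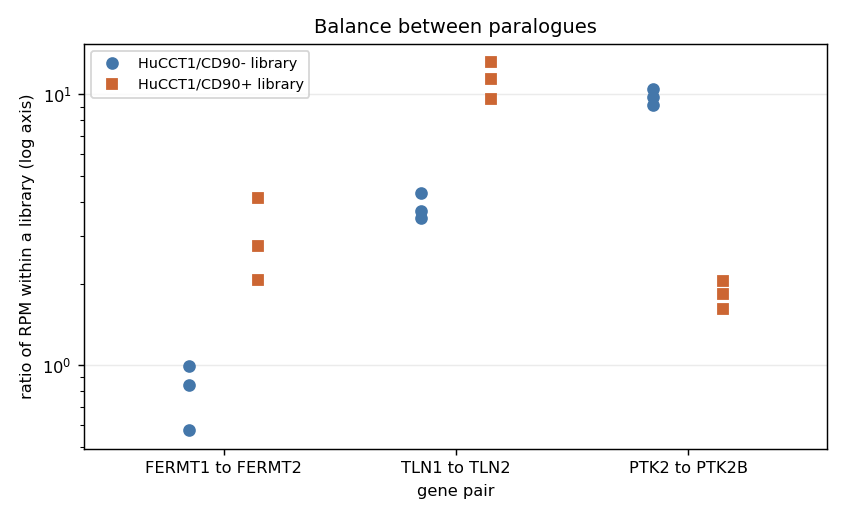
Ratio of the RPM of 2 paralogues within each library, on a log axis, for 3 gene pairs (circles HuCCT1/CD90−, squares HuCCT1/CD90+). Ratios of FERMT1 to FERMT2 and of TLN1 to TLN2 are higher and those of PTK2 to PTK2B lower in all HuCCT1/CD90+ libraries, the last at 1.61 to 2.04 against 9.11 to 10.5.

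Since genes can rise or fall together with their stretch of chromosome, each called gene was set beside the median log2 fold change of its 50 nearest genes on the same chromosome that averaged 10 RPM or more. For 12 of the 15 called genes this median lay between -0.14 and 0.13. It was 0.58 around ITGB5 on chromosome 3, and 0.63 around TES and 0.61 around TNS3 on chromosome 7. After the neighbours' median was taken out before the fit, ITGB5 stood at -0.14 in log2 units (adjusted p = 0.41) and TES at 0.24 (adjusted p = 0.28). Neither was thus higher than its neighbours' median beyond the spread between libraries. The median was taken out as a fixed value, so the spread among the 50 neighbours did not enter the fit. TNS3, lower amid raised neighbours, had -1.53 (adjusted p = 0.0076), and ITGA5 had -0.77 (adjusted p = 0.052). The other 11 called genes passed with the neighbours taken out, among them ITGB6 at 3.65, ITGB3 at -3.41, TLN2 at -2.56 and PTK2B at 1.89.

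**Figure D5:**
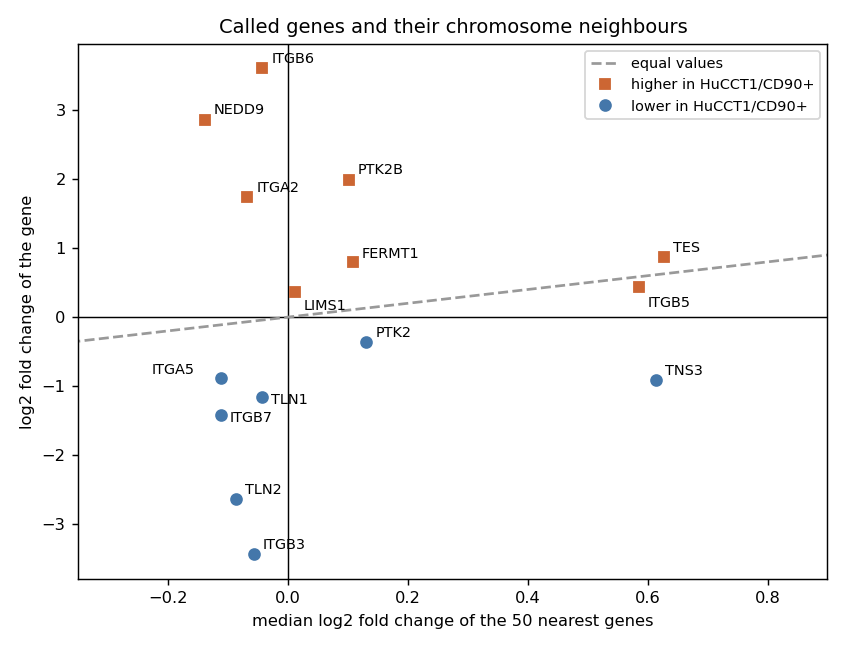
Log2 fold change of each of the 15 called genes (vertical axis) against the median log2 fold change of its 50 nearest genes on the same chromosome (horizontal axis). ITGB5 and TES lie near the dashed line of equal values, at neighbour medians of 0.58 and 0.63, TNS3 lies far below it, and the other 12 genes have neighbour medians close to 0.

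Of 48 further genes of the adhesion machinery, 6 were higher (12.5%, against 9.41% of all genes) and 7 lower (14.6%, against 9.52% of all genes) by the same limma test. The higher ones were the zyxin relatives TRIP6 and LIMD1, the liprin gene PPFIA1, the kinase genes PAK1 and PAK2, and RAP1A, a small GTPase that recruits talin. The lower ones were TNS4, LPXN, SORBS3, ENAH, GIT2, PEAK1 and KANK2, and the 5 of the 13 with the largest changes were all among them. KANK2, which binds talin at the rim of adhesions, fell from 61.8 ± 10.0 to 19.4 ± 3.95 RPM (SD, n = 3 each), and PEAK1, a pseudokinase of focal adhesions, fell from 10.5 ± 0.639 to 2.94 ± 0.351 RPM. TNS4, a tensin that lacks the actin-binding part, fell from 847 ± 122 to 295 ± 36.2 RPM, without overlap (log2 fold change -1.52, adjusted p = 0.0057, limma, and 0.060 with the replicate block). SORBS3, the gene of vinexin, which binds vinculin, fell from 13.9 ± 1.39 to 4.77 ± 1.13 RPM. LPXN, the gene of the paxillin relative leupaxin, fell from 4.76 ± 0.857 to 1.55 ± 0.228 RPM, also without overlap (adjusted p = 0.0086, or 0.068 with the replicate block). Among the 9 actin linkers ENAH was called (11.1%, against 9.52% of all genes lower), and ACTN1, ACTN4 and FLNA, which crosslink actin, had log2 fold changes of -0.10, 0.03 and -0.32 without passing. Without any 1 of the HuCCT1/CD90− libraries, or without HuCCT1/CD90+ replicate 3, 3 of the 48 were higher in place of 6 (6.25%, against 5.54% to 6.69% of all genes). With the replicate block PPFIA1 (adjusted p = 0.074) and RAP1A (0.099) were also lost, and AJUBA (0.043, higher), DOCK1 (0.033, lower) and PDLIM7 (0.044, lower) were gained.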

How the data were processed

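Total RNA of 6 libraries was reverse-transcribed and amplified with an Ion AmpliSeq Transcriptome panel, 1 amplicon per gene, for the Ion GeneStudio S5 Prime sequencer. The ampliSeqRNA plugin gave read counts, and the authors deposited them as RPM, unfiltered for low values. The submitters' processing notes name hg19 and the Transcriptome Analysis Console. Amplicon positions are not given in the sources used here, so reads of isoforms and of overlapping or antisense genes could not be told apart.

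Whole reads were recovered for 100% of values (tolerance 0.0006 RPM). The limma package 3.58.1 (R 4.3.3, lmFit and eBayes) was fitted to log2(RPM + 1) of all 20811 genes, as the study's methods name limma. Alternatives used edgeR 4.0.16 and DESeq2 1.42.0 on recovered reads, among others. Scripts were tested on simulated data. A fold against a line at the floor used the highest floor of its libraries. All pairs of libraries of a line differed by more than sampling noise. TNS2 was matched through its older symbol TENC1.

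Library values are given for called genes that averaged 1 RPM or more in either line and for ITGB1, ITGAV, TLN1, PTK2 and ILK. Values of other members and the promoters to show were chosen after values were seen. Of the 48 other genes, the 5 with the largest called changes are named with values. The members and lists were chosen with earlier results of these data known.

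Same-numbered libraries deviated together from the means of their lines (r = 0.21, 0.32 and 0.18 for numbers 1, 2 and 3, against -0.29 to 0.07 for other pairs), so numbers were taken to pair libraries, from this check alone.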

Additional observations from a re-analysis of the deposited data

How the results depend on the processing

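Of 404 values of 24 named genes under the alternatives, 363 stayed on their side of the threshold, 38 lost the call, 2 gained it and 1 reversed, namely ITGB5 at -0.14 with neighbouring genes taken out. The uncalled ITGB1 and ILK also changed sign in 2 alternatives each, up to 0.17 for ITGB1 and 0.09 for ILK. The calls of ITGB6, ITGB3, ITGB7, ITGA2, TLN1, TLN2, FERMT1, PTK2B and NEDD9 held under all alternatives that could test them. With 1 library left out, 5 to 7 members were higher (5.54% to 6.69% of all genes) and 4 to 8 lower (5.02% to 7.4% of all genes), and 3 to 4 of the 48 other adhesion genes were higher (6.25% to 8.33%). On recovered reads edgeR called 10 of the 30 members it tested higher and 11 lower (33.3% and 36.7%, against 22.2% of its 12070 genes each way), and DESeq2 called 11 of 38 each way (28.9%, against 19.0% and 18.0% of 14399 genes), in place of 8 and 7 of 45. Of the other adhesion genes, edgeR tested 40 and called 11 each way (27.5%), and DESeq2 tested 41 and called 10 higher (24.4%) and 11 lower (26.8%), in place of 6 and 7 of 48. Median centring gave 11 of 48 lower (22.9%, against 13.1% of all genes), and a filter at a mean of 1 RPM 11 of 40 (27.5%, against 21.1% of genes tested). With the replicate block 6 members were higher and 6 lower (13.3% each), and of the 48 other adhesion genes 5 were higher (10.4%) and 7 lower (14.6%), against 6.72% and 6.4% of all genes. The paralogue ratios kept their direction with the other pseudocounts, with quantile normalization and with 1 library left out, the alternatives run for them. RPM values carry no unique molecular identifiers, so depth limits cover counting error only, and genes near the floor could not be compared.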
